A study of Mus musculus with 32 samples.

Results

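The comparison concerned migDC1, the migratory type 1 dendritic cells (DC) of the skin-draining lymph node of mice, with and without Cre-mediated loss of Ifngr1. All libraries whose cell type label is migDC1 were taken, 4 of the 32 libraries of the series: 2 with the genotype CD11cCREpos/IFNgr1flfl (Cre-positive, named Ifngr1 KO in the treatment label) and 2 with CD11cCREneg/IFNgr1flfl (Cre-negative, Ifngr1 WT). Both genotypes carried floxed Ifngr1 alleles and differed in the Cre recombinase, which is driven by the promoter of CD11c, the protein encoded by Itgax. That promoter is active in DC in general and in some macrophages, so loss of the receptor was not limited to migDC1. The cells are named CD103_migDC1 in the source label. The labels name no strain, age or sex. They also do not tie a library to an animal, so p-values measure the spread between these libraries, which may be technical. The floxed exon is not named either, so no peak at Ifngr1 could serve as a check of the deletion. Open chromatin was mapped by Omni-ATAC-seq, in which the transposase Tn5 cuts and tags accessible DNA. Each library is represented by a list of peaks, that is, of stretches where tagged fragments accumulated. The 24 other libraries with floxed Ifngr1 (3 per genotype of each of cDC1, cDC2, DN migDC and migDC2) and 4 migDC2 libraries of wild-type and germline Ifngr1 knockout mice served for comparison.

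Type 1 DC carry antigen from the skin to the node and present it to CD8 T cells, and they mature on the way, which switches on the chemokine receptor Ccr7. Interferon-γ (IFN-γ) binds a receptor made of Ifngr1, the ligand-binding chain, and Ifngr2. The signal runs through the kinases Jak1 and Jak2 to the IFN-γ-activated site (GAS) of genes such as Irf1. Irf1 in turn acts through interferon-stimulated response elements (ISRE) on genes of antigen presentation and on guanylate-binding proteins, while Socs1 and Socs3 dampen the signal.

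The promoters below belong to genes on which the results turn. Irf1 is a direct target of the pathway, and Itgax is the gene whose promoter drives Cre. Btaf1 and Kif11 lie on chromosome 19, and their promoters ranked higher with Cre in every floxed subset. Zfp467 is the gene named by the selection rule whose promoter window overlapped a region called with Cre only. Each run is the 250 bases before a RefSeq start, 5′ to 3′ along the gene, from the promoter table of GRCm38.p6, the assembly of mm10. Capitals mark the motif found, if any.
Irf1: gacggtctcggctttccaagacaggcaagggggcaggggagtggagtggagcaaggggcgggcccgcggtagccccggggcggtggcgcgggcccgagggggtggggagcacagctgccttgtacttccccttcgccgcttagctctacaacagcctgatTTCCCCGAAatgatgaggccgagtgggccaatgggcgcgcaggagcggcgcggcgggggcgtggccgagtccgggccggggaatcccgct
Itgax: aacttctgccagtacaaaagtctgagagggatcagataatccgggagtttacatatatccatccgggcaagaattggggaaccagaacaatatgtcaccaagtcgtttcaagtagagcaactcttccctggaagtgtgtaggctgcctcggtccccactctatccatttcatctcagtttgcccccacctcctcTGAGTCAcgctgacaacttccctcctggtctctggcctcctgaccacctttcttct
Btaf1: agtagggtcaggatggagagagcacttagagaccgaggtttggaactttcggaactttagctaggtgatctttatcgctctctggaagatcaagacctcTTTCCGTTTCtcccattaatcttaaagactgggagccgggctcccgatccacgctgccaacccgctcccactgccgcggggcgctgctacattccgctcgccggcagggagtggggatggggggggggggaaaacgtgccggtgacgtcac
Kif11: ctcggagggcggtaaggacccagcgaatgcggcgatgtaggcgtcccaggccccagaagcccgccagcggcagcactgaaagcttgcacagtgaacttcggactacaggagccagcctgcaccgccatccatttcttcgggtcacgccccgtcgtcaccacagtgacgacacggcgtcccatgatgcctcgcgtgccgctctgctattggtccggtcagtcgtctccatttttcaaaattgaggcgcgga
Zfp467: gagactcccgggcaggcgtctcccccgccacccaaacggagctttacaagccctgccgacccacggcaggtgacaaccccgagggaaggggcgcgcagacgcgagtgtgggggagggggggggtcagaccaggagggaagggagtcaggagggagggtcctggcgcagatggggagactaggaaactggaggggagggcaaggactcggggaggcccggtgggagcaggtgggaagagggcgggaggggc

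The windows lie at chr11:53769764-53770013 (Irf1, plus strand), chr7:128129300-128129549 (Itgax, plus), chr19:36925829-36926078 (Btaf1, plus), chr19:37376132-37376381 (Kif11, plus) and chr6:48445091-48445340 (Zfp467, minus). Motifs were searched on both strands. Irf1 holds a GAS (searched as TTCNNNGAA) from 90 to 82 bases before the start, and its other tabulated start holds none of the motifs. Btaf1 holds an ISRE (GAAA, any 2 bases, GAAA, here on the other strand) from 151 to 142 bases before its start, and Itgax an AP-1 site (TGANTCA) from 56 to 50. Kif11 and Zfp467 hold none of these, nor the ETS-IRF composite (GGAA, any 2 bases, GAAA), whose letters can overlap an ISRE. Over windows from 250 bases before to 50 after the start, GAS letters occur in 7.78% of 20085 RefSeq promoters, ISRE letters in 3.38%, AP-1 letters in 7.06% and the composite in 2.56%. A match is a description of the sequence.

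The marker genes Ccr7 and Xcr1 had peaks in all 4 migDC1 lists. Ccr7 held 1 or 2 peaks in its gene there, 2 to 3 in cDC1 lists and 3 to 6 in cDC2 lists. Xcr1 held 4 to 5 in cDC1 lists and 2 to 4 in cDC2 lists. The Ccr7 counts of migDC1 thus lay below those of cDC2 and met those of cDC1. Its Xcr1 counts lay below those of cDC1 and within those of cDC2. Neither gene's count set migDC1 apart from both. A peak over Ccr7 was 16768 to 20686 bp wide in the migDC1 lists, so few peaks there do not mean little open chromatin. The stretch over Ccr7 held the strongest peak of both Cre-negative lists and ranked 2 and 3 in the Cre-positive ones. Xcr1, a chemokine receptor of type 1 DC, had 3 peaks in its gene in each list, but the region at its promoter was weak, at ranks 32515 and 34527 (Cre-negative) and 34145 and 34714 (Cre-positive) of the 40979 regions ranked in each list. Clec9a and Itgae, the gene of CD103, had no peak at a start in any list, although Itgae held 8 or 9 peaks in its gene. A peak at the start was present for 22 to 24 of 29 cDC1 genes and for all 22 ubiquitously active genes with a tabulated start. Of other cells, 5 to 7 of 18 T cell genes, 3 to 7 of 16 B cell genes, 5 or 6 of 16 NK and ILC genes, 12 to 15 of 20 monocyte and macrophage genes and none of 13 neutrophil genes had one. For other DC the counts were 17 to 21 of 29 cDC2 genes, 12 of 15 Langerhans cell and skin DC genes and 7 to 9 of 13 plasmacytoid DC genes. In the second Cre-negative list the cDC2 share (21 of 29) and the plasmacytoid DC share (9 of 13) exceeded that of monocyte and macrophage genes (13 of 20). In each other migDC1 list both were lower than it. Cd3e, Cd3d, Cd3g, Lck, Cd79a and Pax5, which define T and B cells, had none in any migDC1 list.

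One library stood apart in length. The Cre-negative lists held 44263 and 59296 autosomal peaks, and the Cre-positive lists held 57561 and 56611, within the range of 32088 to 73627 over all 32 lists. The first Cre-negative list was shorter than both Cre-positive lists and the second was longer, so the genotypes overlapped. The mean was 5306.5 peaks higher with Cre (exact permutation test, two-sided, p = 1, where 2 against 2 cannot go below 0.333). Covered length ran from 27.6 Mb in the first Cre-negative list to 39.8 Mb in the second and 39.3 and 41.1 Mb in the Cre-positive lists. The weakest peak of each list had a deposited signal just above 200. The lists hold no read counts, so depth is unknown. Absence from a list can mean closed chromatin or a signal below what that list could report, and results are therefore given with the full lists and with the strongest 44263 peaks of each.

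Regions were autosomal stretches of 100 bp or more that peaks from 2 or more of the 4 lists covered, with the 250 kb on each side of Itgax set apart. Of 57530 such regions, 40953 (71.2%) were called in all 4 lists. A further 8651 (15%) were called in both Cre-positive lists and 1 Cre-negative list. Regions called in both Cre-positive and neither Cre-negative list numbered 1745 (3.03%), against 193 (0.335%) called in both Cre-negative and neither Cre-positive list. At equal list length these became 941 (2.07%) and 646 (1.42%) of 45529 regions, which were defined anew on the shortened lists. Without the first, shorter Cre-negative list, the full-length counts were 1882 and 193. Without the second Cre-negative list, the Cre-positive count was 10259. Without the first or second Cre-positive list, the Cre-negative count was 736 or 536. The region sets of any pair of lists at equal length overlapped by a Jaccard index of 0.815 to 0.853, and the Cre-negative pair (0.842) and the Cre-positive pair (0.841) lay within the range of the mixed pairs.

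**Figure D1:**
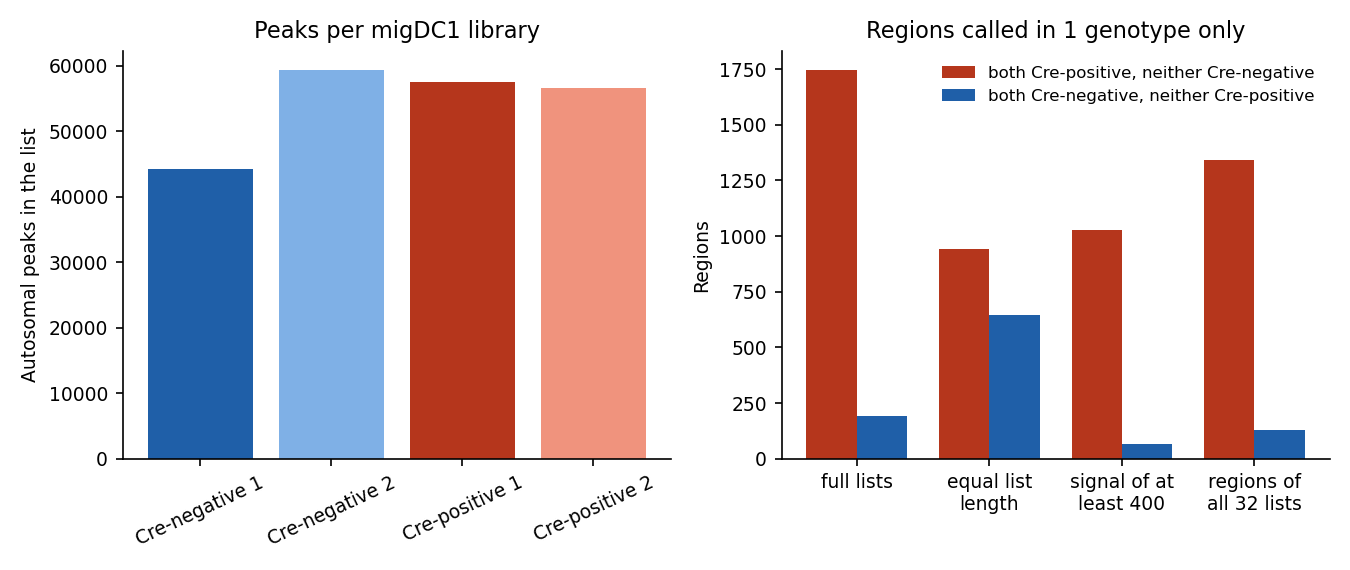
Left, autosomal peaks in each migDC1 list (bars start at 0). Right, regions called in both lists of 1 genotype and neither list of the other, with full lists, with the strongest 44263 peaks per list, with peaks of signal 400 or more, and on regions defined over all 32 lists. The count with Cre is 1745 with full lists and 941 at equal length, and the count without Cre is 193 and 646.

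Only 132 regions (0.229%) were exclusive to Cre-positive lists at both lengths, and 59 (0.103%) to Cre-negative lists. These are descriptive counts, since 2 lists against 2 cannot pass an exact test for a single region. Of the 132, 44 had a calling peak that touched a peak of a Cre-negative list, so that they differ in where a peak ends, and 88 stood alone. Promoters made up 27 of the 132 (20.5%) and gene bodies 57 (43.2%), against 17.8% and 43.3% of all regions. They were mostly weak peaks: the median of the lower of both list percentiles was 27.4, and 7 lay above 50. Of the 59 Cre-negative regions, 50 stood alone, 4 were at promoters, and the median percentile was 9.89.

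Among the genes of the chosen lists, 4 had a region exclusive to Cre-positive cells. A distal region 1354 bp from H2-Q6, a nonclassical MHC class I gene, at chr17:35423224-35423769, reached percentiles 34.2 and 35.2 of the Cre-positive lists. A distal region 24134 bp from Batf3, the transcription factor required for type 1 DC, at chr1:191132871-191133283, reached 27.8 and 33.6. The gene body of Sirpa, an inhibitory receptor typical of type 2 DC, held one at chr2:129592756-129593130 (23.8 and 23.1). The fourth lay 7799 bp from Cd207, which encodes langerin, at chr6:83685333-83685979 (30.9 and 22.7). None of the 4 touched a peak of a Cre-negative migDC1 list. In the 24 other floxed lists they were common in both genotypes: H2-Q6 in 12 Cre-positive and 12 Cre-negative lists, Batf3 in 9 and 7 with none in cDC1, Sirpa in 11 and 12, and Cd207 in 12 and 9.

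The strongest regions of this group were edges of larger peaks. The promoter region of Nr4a3, a nuclear receptor induced by activation, at chr4:48044126-48044357, was held by peaks at percentiles 99.4 and 97.5. Gnb2, a G protein β subunit, followed at 90.5 and 87.5 (chr5:137532382-137532511), and Lasp1, an actin-binding protein, at 95.8 and 66.2 (chr11:97800503-97800633). The Zfp467 promoter region (a zinc finger protein, chr6:48444492-48445243), which overlaps the promoter printed above, reached 68.5 and 65.8, and the gene body of Ppfibp2, a liprin, 62.5 and 90.8 (chr7:107708297-107708674). Regions at Rin2, Adamts6 and Whrn were next. For all 8 genes the calling peak touched a peak of a Cre-negative list.

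Exclusive to Cre-negative cells were regions at 3 list genes: a distal region 21892 bp from Ccr2, the monocyte chemokine receptor, at chr9:124079827-124080225 (percentiles 18.9 and 29.0), a distal region of Ptpn11, the phosphatase SHP-2, at chr5:121096685-121096980 (8.37 and 29.5), and the gene body of Bcl2l14 at chr6:134420449-134420693 (3.38 and 29.5). The strongest was 1214 bp wide and lay 955 bp from Hspa1b, a stress-induced HSP70 gene, at chr17:34954868-34956081, with percentiles 71.8 and 77.0. It stood alone, and in the other 24 lists it was called in 1 Cre-negative and 0 Cre-positive lists. A pair of regions near Hspa8, the constitutive HSP70 relative, was also exclusive to Cre-negative cells (chr9:40806223-40806759 at 44.0 and 31.6, chr9:40807767-40808324 at 21.0 and 32.4). These were called in 9 and 5 Cre-positive and in 8 and 8 Cre-negative other lists. Further regions were found at Sh2b2, Ambra1, Arid5b, Cdk18, Tnfsf15 and, with a pair of regions, Arhgap28. The promoter window of Acod1, the itaconate-producing enzyme of activated myeloid cells, also held one (chr14:103046812-103047050, 9.62 and 28.4); it was chosen after its values were seen.

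At the Ifngr1 promoter the genotypes overlapped. Regions called in all 4 lists were ranked by deposited signal within each list, with rank 1 the strongest of 40979, and ranks were turned into normal scores, so that a difference of 1 is about 1 SD of all regions. The Ifngr1 promoter (chr10:19591154-19592846) ranked 1744 and 1736 in the Cre-negative and 2027 and 1417 in the Cre-positive lists. The score difference was 0.01 (95% interval −0.22 to 0.24). A region in the gene body (chr10:19594220-19595000) differed by −0.02 (−0.45 to 0.41), and a distal one (chr10:19570166-19570734) by 0.00. The fourth shared region, 4268 bp from the gene (chr10:19614262-19614733), was weak and ranked higher in both Cre-positive lists, 40616 and 32270 against 28496 and 31674 (0.95, −0.32 to 2.23), which did not pass. Of 7 Ifngr1 regions, the short Cre-negative list called 4 and each of the other 3 lists called 7. The promoter of Ifngr2, the second receptor chain, ranked 577 and 745 without Cre and 521 and 447 with it (0.12, −0.13 to 0.37).

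By signal, the promoters of the kinases overlapped between genotypes. Jak1 ranked 3311 and 3853 against 3361 and 4068 with Cre, and Jak2 1523 and 2027 against 1846 and 956. By summit height both separated the genotypes, in opposite directions: Jak1 ranked 3004 and 2645 against 1670 and 1737 (0.25), and Jak2 3539 and 4175 against 5068 and 5584 (−0.19). Neither passed, and by that measure 7351 of 40953 regions separated the genotypes upward and 7599 downward. Jak2 and Socs1 each had 1 region called only with Cre.

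Irf1 had one of the strongest promoters of these cells. It ranked 89 and 132 without Cre and 189 and 229 with it (chr11:53768100-53771740). Both Cre-positive lists ranked it lower than both Cre-negative lists, a separation seen in 20.7% of all ranked regions, and the reverse in 15.5%, with a difference of −0.22 (−0.55 to 0.12, limma adjusted p = 0.862). Downstream of the gene, chr11:53778349-53784922 ranked 51 and 39 against 418 and 3780 (−1.24, −1.99 to −0.50, adjusted p = 0.862), where the calling peaks were 6472 and 9291 bp wide without Cre and 5478 and 2785 bp with it. Of 13 shared Irf1 regions, 4 ranked higher and 9 lower with Cre. Irf8, the lineage factor of type 1 DC that IFN-γ also induces, had 3 higher and 15 lower of 18. By summit height the tallies were 3 and 10 for Irf1 and 7 and 11 for Irf8, where all regions had 18509 higher and 22444 lower by signal and 20279 and 20674 by summit height. Its promoter (chr8:120735511-120737065) ranked 1615 and 2162 against 2513 and 2733 (−0.17, −0.38 to 0.05). None of these passed the test.

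The inhibitor Socs1 had a very strong promoter, at ranks 121 and 136 without Cre and 138 and 167 with it (−0.06, −0.39 to 0.27). Socs3 ranked 5360 and 7642 against 6104 and 8380, with 2 of its 11 shared regions higher and 9 lower. Among IFN-γ-induced genes, the Cd274 promoter (PD-L1) varied within both genotypes, at 4879 and 1419 against 523 and 2264. Gbp2, a guanylate-binding protein, ranked 10326 and 15111 at its promoter (chr3:142620310-142620995) without Cre and 17231 and 17605 with it, without overlap (−0.31, −0.64 to 0.01, adjusted p = 0.862). In the first Cre-negative list a single peak of 1193 bp covered this region and the next one. The chemokine Cxcl9 (6990 and 7608 against 6827 and 6790), the peptide transporter Tap1 (718 and 1378 against 1020 and 1187) and the MHC regulator Nlrc5 (12024 and 11987 against 12684 and 11094) overlapped or lay close together. So did a distal region 14580 bp from Ciita, another MHC regulator (9532 and 8025 against 10771 and 8951). Gene body regions of both regulators separated the genotypes in either direction. At Ciita, chr16:10489175-10490114 was higher with Cre (0.92) and chr16:10500547-10501042 lower (−0.33). At Nlrc5, chr8:94485222-94486563 was higher (0.67) and chr8:94458716-94459637 lower (−0.68). None of these gene body regions passed (limma adjusted p = 0.862 each). Cd74, whose product chaperones MHC class II molecules, held one of the strongest regions of every list (14 and 25 against 21 and 24). Psmb8, an immunoproteasome subunit whose promoter region adjoins Tap1, ranked higher with Cre (5028 and 3450 against 1823 and 2194, difference 0.39, adjusted p = 0.862).

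**Figure D2:**
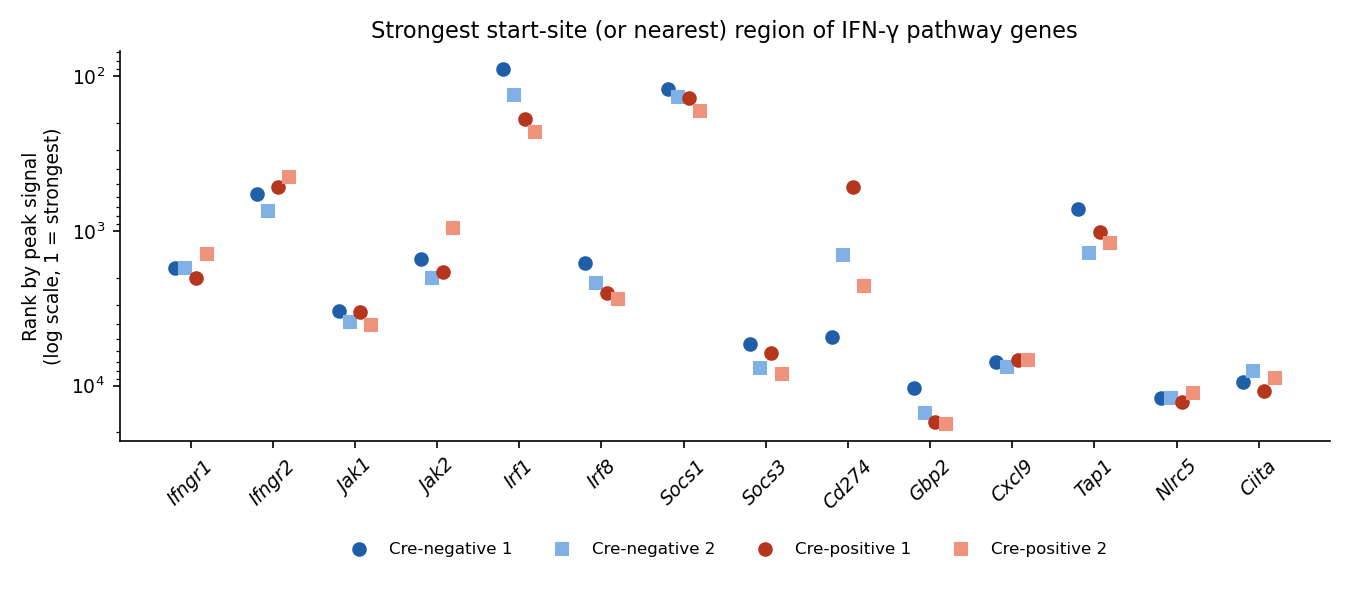
Rank by peak signal (log axis, rank 1 at the top) of the strongest promoter, gene-end or nearest region of 14 IFN-γ pathway genes in each migDC1 library, with 1 point per library. Irf1 ranks 89 and 132 in the Cre-negative lists and 189 and 229 in the Cre-positive lists, while Ifngr1, Jak1, Socs1, Tap1 and Nlrc5 points of both genotypes lie together.

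Over whole lists of genes the shifts were small. The 46 IFN-γ-induced genes had 160 shared regions, of which 57 ranked higher and 103 lower with Cre, with a median difference of −0.06, beside −0.02 over all 40953 regions (18509 higher, 22444 lower). In 28.7% of the 160 both Cre-positive lists lay below both Cre-negative lists and in 14.4% above, beside 20.7% and 15.5% of all regions. The share below was 32% for stromal and epithelial genes and 27.3% for monocyte and macrophage genes. An unadjusted limma p under 0.05 was reached by 10% of them, 5 upward and 11 downward, beside 4.75% of all regions (2.45% upward and 2.3% downward), and none passed after adjustment. By summit height the share was 7.5%, 4 upward and 8 downward, beside 6.63% of all regions. Other lists by signal had shares of the same order: monocyte and macrophage genes 11.4%, MHC class I genes 10.4% and cDC2 genes 9.38%. The IFN-γ reception and signalling genes had 5.48% by signal and 11.6% by summit height. The 20 genes of IFN-γ reception and signalling had 58 higher and 88 lower of 146 (median −0.06). The 30 type I IFN genes had 35 higher and 30 lower (0.01), the 19 MHC class I genes 22 and 26 (−0.01), and the 19 MHC class II genes 44 and 42 (0.00). DC maturation genes had 149 higher and 223 lower (−0.05), tolerance-associated genes 67 and 112 (−0.07), and cDC1 genes 121 and 120 (0.00). Regions of 1 gene are not independent, and these lists share genes.

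Among calls exclusive to 1 genotype, IFN-γ signalling genes had 4 of 203 regions with Cre and 2 without (1.97% and 0.985%, against 3.03% and 0.335% of all regions). IFN-γ-induced genes had 6 and 1 of 220 (2.73% and 0.455%). The cDC1 genes had 12 and 2 of 314 (3.82% and 0.637%). At both list lengths the 2 IFN-γ lists kept 0 with Cre and 1 without, the latter at Ptpn11.

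By signal, promoters of DC identity and maturation genes overlapped or lay close together in most cases. Fscn1, the actin bundler of mature DC, ranked 8 and 14 without Cre and 14 and 14 with it at its promoter. Cd40, the costimulatory receptor, ranked 88 and 211 against 182 and 282, and Ccl22, a chemokine of mature DC, 2451 and 3002 against 3779 and 2932. Batf3 (6175 and 5279 against 5691 and 7447) and Wdfy4, which is needed for cross-presentation (4138 and 4050 against 4176 and 4263), overlapped or lay close together. Il12b, which encodes a subunit of IL-12, varied more within than between genotypes (8372 and 2672 against 11204 and 3433). By summit height, Fscn1 ranked lower with Cre (1380 and 1241 against 2149 and 2456, −0.27). So did Il12b (4914 and 7233 against 8295 and 7700, −0.19) and the stretch over Ccr7 (2461 and 179 against 4625 and 3988, −0.83). Batf3 ranked higher (21831 and 23566 against 18011 and 15320, 0.38). Cd40, Ccl22 and Wdfy4 overlapped by summit height, and none of these passed. By signal, a second Ccr7 region (chr11:99153757-99155641) ranked 180 and 1 against 468 and 414 (−1.04, −2.10 to 0.02). In the second Cre-negative list a single peak of 20686 bp called both Ccr7 regions. A distal Xcr1 region (chr9:123863084-123863979) ranked 31263 and 35668 without Cre and 20632 and 19411 with it (0.95, 0.46 to 1.45, adjusted p = 0.829). The calling peaks there were 265 and 439 bp wide without Cre and 891 and 874 bp with it. By summit height, the smallest unadjusted limma p of any Xcr1 region was 0.12. The promoter of Tnfaip3, the A20 inhibitor of NF-κB, ranked 392 and 669 against 58 and 56 (chr10:19011201-19016021, 0.75, 0.42 to 1.09, adjusted p = 0.631). Its calling peaks were 1920 and 2047 bp wide without Cre and 4961 and 4770 bp with it.

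No region outside the Itgax neighbourhood passed the rank test in migDC1. limma called 0 of 40953 regions (0%) at an adjusted p under 0.05, and 1944 (4.75%) had an unadjusted p under 0.05. The smallest adjusted p was 0.209. The 5 regions of smallest p in each direction were taken for description, and 1 of those lower with Cre is not shown. Higher with Cre were Rassf2, a Ras-binding tumour suppressor, at its promoter (7435 and 5902 against 897 and 968), Sart3, Capza2, Fcer1g and Eif4ebp1. Fcer1g, the signalling chain of Fc receptors, ranked 15881 and 16147 against 4817 and 5857. Lower with Cre were Depdc1b (2319 and 2641 against 11762 and 11781), an intergenic region at chr13:3742789-3744692, Dph7 and Akap13. None of these 9 passed.

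The order by signal depends on the width of a peak. Across the peaks of a list, Spearman's correlation of signal with width was 0.852 to 0.873, and with the −log10 p at the summit 0.941 to 0.948 (across peaks, which are not independent). At Fcer1g the calling peaks were 636 and 613 bp wide without Cre and 1798 and 1863 bp with it, and at Depdc1b 1363 and 1426 bp against 559 and 806 bp. Of the 9 regions, 7 changed sign when the signal was divided by the width of the peak. Ranked by the height of the summit instead, the differences of these 9 lay between −0.26 and 0.41.

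**Figure D3:**
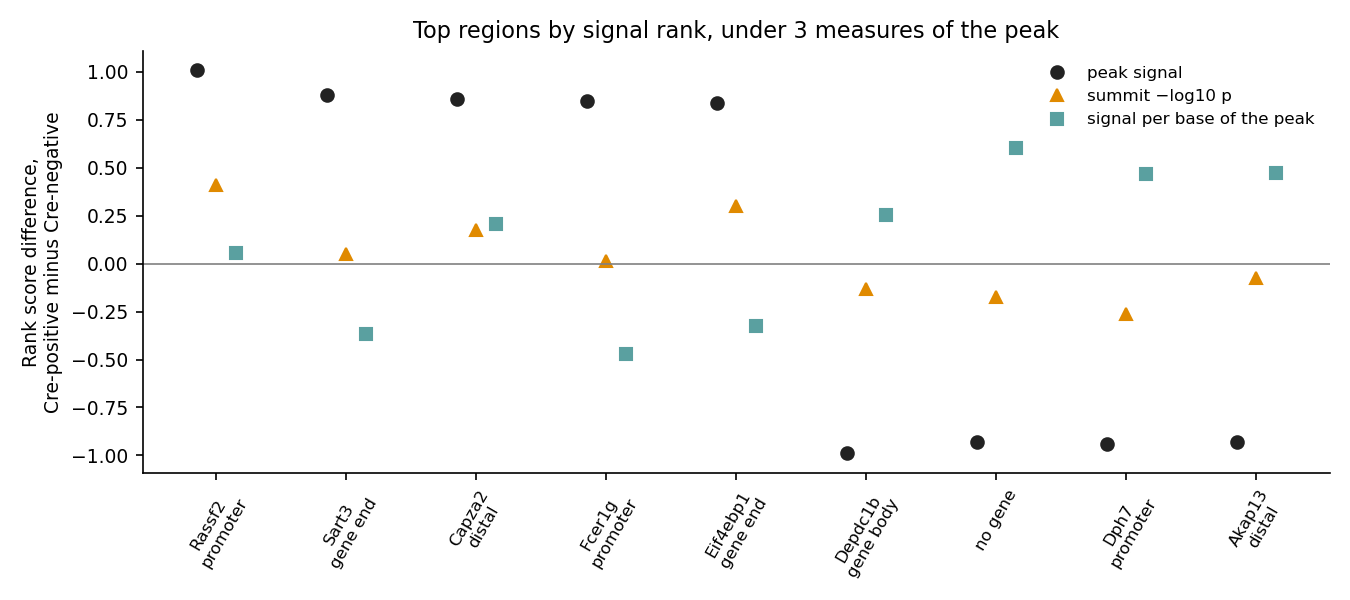
Difference in rank score between Cre-positive and Cre-negative migDC1 lists for 9 regions, the 5 of smallest p among those higher with Cre and 4 of the 5 among those lower, by peak signal (circles), by summit −log10 p (triangles) and by signal per base (squares). Differences by signal are near 1 or −1, those by summit lie between −0.26 and 0.41, and 7 of the 9 change sign per base.

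By summit height, a measure added after the data were seen, 1 of 40953 regions passed (0.00244%) and 2714 (6.63%) had an unadjusted p under 0.05. It lies at a gene end of Tnfsf9, which encodes 4-1BBL, a costimulatory ligand for CD8 T cells (chr17:57104330-57106202). Its summit ranked 25444 and 25602 without Cre and 8668 and 9075 with it (1.11, 0.82 to 1.39, limma adjusted p = 0.0118). By signal it ranked 9100 and 10777 against 3757 and 3460 (0.65, 0.45 to 0.86, adjusted p = 0.316). Both measures separate the genotypes in the same direction, and only the first passed. Another Tnfsf9 region, 3746 bp from the gene, went the other way by signal (19836 and 19712 against 25572 and 27041, −0.41). In the other 4 subsets the gene-end region differed by 0.04 in summit height.

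A replicated view came from the 24 other floxed lists. Of 24085 regions called in all 28 floxed lists, limma with a term for subset called 11 between genotypes in cDC1, cDC2, migDC2 and DN migDC (0.0457%), 9 higher and 2 lower with Cre. These libraries do not include migDC1, although the labels do not say whether they came from other mice. In migDC1, 10 of the 11 differed in the same direction, 3 of the 11 being in the Itgax neighbourhood and 8 of the 11 with an unadjusted limma p under 0.05, whereas 56% of all 24085 regions had the same direction. The 11 lie at 5 places: Itgax and Itgam on chromosome 7, Rasgrf2 on chromosome 13, Fgfbp3, Btaf1 and Kif11 on chromosome 19, and the promoters of Irf1 and Ccdc43 on chromosome 11. At an unadjusted p under 0.05 there were 893. By summit height 9 regions passed in the other subsets (0.0374%), at Itgax and Itgam, at Rasgrf2 and on chromosome 19.

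Irf1 was the only gene of the IFN-γ lists among them. In the other 4 subsets its promoter was lower with Cre by −0.23 (−0.30 to −0.16, limma adjusted p = 0.00272), about the same size as the −0.22 in migDC1. In every subset all Cre-positive lists ranked it below all Cre-negative lists. The difference between migDC1 and the other subsets was 0.00 (−0.19 to 0.18). Irf1 stayed called when any one of the 24 lists was left out. It was not called by summit height (−0.03 in the other subsets, −0.04 in migDC1) or per base. Ccdc43, the other promoter that ranked lower in the other subsets (−0.21), was at 0.01 in migDC1 (14581 and 16543 against 13663 and 17039), and the difference between migDC1 and the others did not pass (0.21, −0.01 to 0.42).

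On chromosome 19 several regions, with others between them that did not, ranked higher with Cre in migDC1 as in the other subsets. The promoter of Btaf1, an ATPase that removes TBP from DNA (chr19:36925523-36927205), ranked 5894 and 5369 without Cre and 3159 and 2360 with it (0.41, 0.20 to 0.62). Kif11, the mitotic kinesin Eg5, ranked 7610 and 7584 against 4532 and 3223 at its promoter (chr19:37375734-37376823, 0.42, 0.20 to 0.65). Fgfbp3, a binding protein for fibroblast growth factors, ranked 8311 and 6034 against 2638 and 4903 (chr19:36918363-36919860, 0.41, 0.07 to 0.74). All 3 separated the genotypes without overlap, and by summit height the differences were 0.49, 0.57 and 0.40. Neighbours varied by summit height, by which 7351 of 40953 regions separated the genotypes upward and 7599 downward. A gene body region of Btaf1 (chr19:37008785-37009401) ranked lower with Cre (17869 and 27972 against 34142 and 39484, −1.27). So did a distal region at chr19:36901548-36902040 (32181 and 35850 against 40803 and 38897, −1.22). The promoters of Marchf5 (−0.03) and Hhex (0.08) were near 0. Distal regions assigned to Marchf5 (0.40 and 0.78) and Ide (0.70 and 0.45) ranked higher in both Cre-positive lists. Another distal Marchf5 region overlapped between genotypes (37065 and 40359 against 36890 and 38897, 0.28). Cpeb3 held gene body regions that separated the genotypes downward (−0.52 and −0.96) and upward (0.31), while its weak promoter region overlapped (40972 and 40124 against 40633 and 38241).

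On chromosome 13 the gene body of Rasgrf2, a Ras exchange factor (chr13:92030480-92031111), ranked 29329 and 19705 without Cre and 11192 and 11920 with it (0.84, 0.34 to 1.34, adjusted p = 0.862). By summit height it ranked 28805 and 15263 against 5468 and 5770 (1.21, 0.79 to 1.63, adjusted p = 0.171), and a second Rasgrf2 region (chr13:92037909-92038763) 18584 and 16503 against 5068 and 8380 (0.81, 0.55 to 1.08, adjusted p = 0.139). Both separate the genotypes and neither passed on the 4 lists alone.

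**Figure D4:**
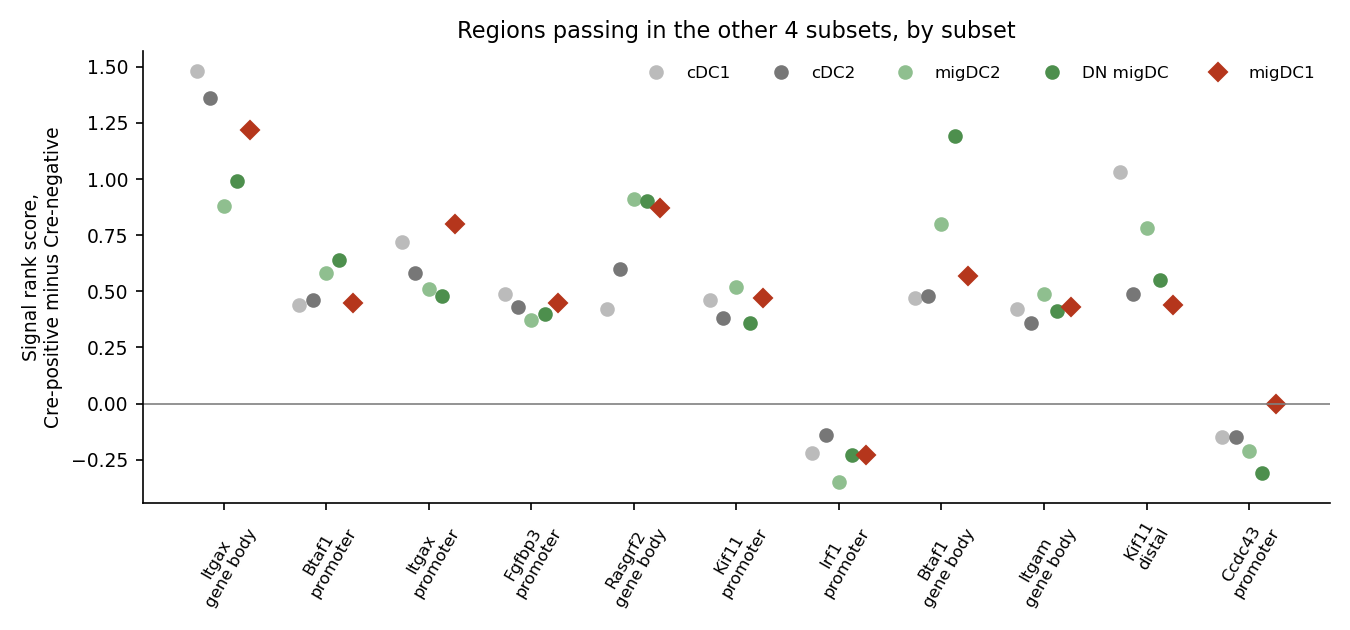
Difference in signal rank score between Cre-positive and Cre-negative lists, ranked among 24085 regions, for the 11 regions that passed in the other 4 subsets, with 1 point per subset and migDC1 as diamonds. In migDC1, the 9 regions other than Irf1 and Ccdc43 lie between 0.43 and 1.22, Irf1 lies below 0 with the other subsets, and Ccdc43 lies at 0.00.

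Outside the Itgax neighbourhood, 6 of 24066 regions (0.0249%) separated the genotypes the same way in all 5 subsets: Rasgrf2, Fgfbp3, the promoter and gene body of Btaf1, and the Kif11 promoter upward, and Irf1 downward. The migDC2 libraries of germline mice, which carry no Cre, gave a look at these without a test. Among 21631 regions called in all 32 lists, Btaf1 ranked 2338 and 2612 in germline knockout and 8551 and 5106 in wild-type lists. Kif11 ranked 3308 and 4425 against 8837 and 4710, and Fgfbp3 3347 and 4773 against 9248 and 6688. The chromosome 19 promoters were thus higher in both knockout lists as well. Rasgrf2 (18681 and 18707 against 17934 and 19047), Irf1 (608 and 482 against 492 and 384) and the Itgax gene body (3602 and 5787 against 6372 and 5020) overlapped.

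The Itgax neighbourhood on chromosome 7 was kept apart, since a transgene built with the CD11c promoter can add copies of that sequence, and added copies and more open chromatin cannot be told apart here. In the gene body (chr7:128132062-128134158), signal ranked 6936 and 6592 without Cre and 886 and 683 with it (1.10, 0.90 to 1.30, limma adjusted p = 0.209), the first of all ranked regions by p. By summit height it ranked 16340 and 16110 against 5392 and 4055 (0.94, adjusted p = 0.00749). The Itgax promoter (chr7:128128677-128130208), printed above, ranked 8757 and 9171 against 2623 and 2944 (0.72, 0.53 to 0.90). A gene body region of the adjacent Itgam, which encodes CD11b, ranked 17519 and 17742 against 11936 and 11204 (0.40, 0.18 to 0.62). Farther out, strong regions lay near 0, such as the Vkorc1 promoter at −0.04 and the strongest Rgs10 region at 0.03, while weak ones near Trim72 (0.96) and at the Rusf1 promoter (0.65) ranked higher with Cre.

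Within 250 kb of Itgax, peaks covered 18676 and 26062 bp in the Cre-negative and 30512 and 31103 bp in the Cre-positive lists. Their number was 28 and 39 against 41 and 40, and their share of all covered bases 0.0678% and 0.0655% against 0.0776% and 0.0756%. All 3 measures were higher in both Cre-positive lists (exact permutation test, two-sided, p = 0.333 each, the smallest that 2 against 2 allows). Of 38 regions there, 26 were shared, with 15 higher and 11 lower and a median of 0.04. Of the regions not shared by all 4 lists, 2 were called only with Cre, 1 of them in Itgam, and 0 only without.

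**Figure D5:**
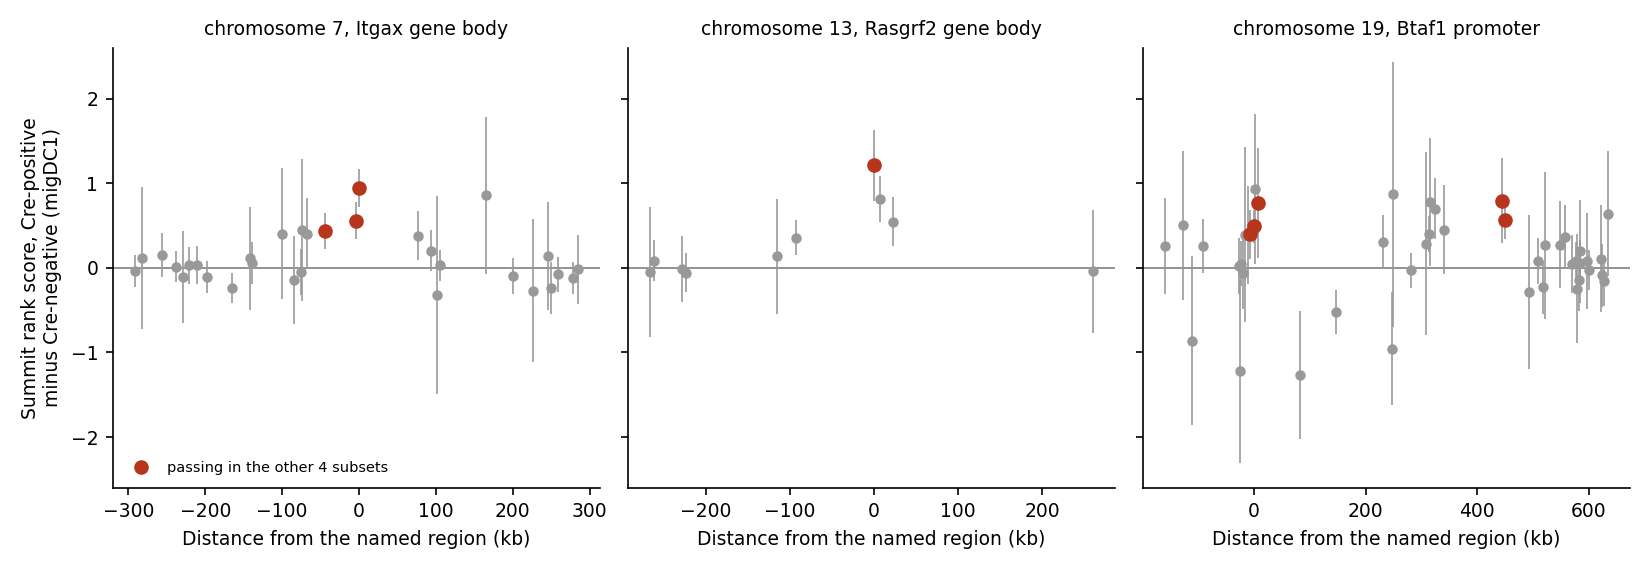
Difference in summit rank score between Cre-positive and Cre-negative migDC1 lists (points, with 95% intervals) for shared regions around the Itgax gene body, the Rasgrf2 gene body and the Btaf1 promoter, by distance in kb. Filled red points mark regions that passed by summit height in the other 4 subsets. They reach 0.94 at Itgax, 1.21 at Rasgrf2 and, around Btaf1, 0.79 at a distal Kif11 region. The Btaf1 promoter itself lies at 0.49. Neighbours lie on both sides of 0, several with intervals that span it.

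Regions exclusive to 1 genotype in migDC1 were also called in part in both genotypes of the other subsets. Of the 1745 regions called only with Cre, migDC2 lists held 66.3% ± 7.41 without Cre and 60.3% ± 11 with it (SD, n = 3 each), and cDC1 lists 50.4% ± 6.14 and 47.7% ± 9.24. Of the 193 regions called only without Cre, migDC2 lists held 50.3% ± 5.7 and 44.4% ± 9.33. The ranges of both genotypes overlap in each of these. The shares were lower than over all 57530 regions, of which migDC2 lists held 88.5% without Cre and 85.9% with it. For cDC1 lists the shares over all regions were 71.8% and 70.6%, and for DN migDC lists 86.8% and 85.1%. Of the 59 regions exclusive to Cre-negative lists at both lengths, DN migDC lists held 55.9% ± 7.39 without Cre (47.5% to 61%) and 42.9% ± 3.91 with it (40.7% to 47.5%), so the ranges met at 47.5%. An exact test of calls in the 24 lists, stratified by subset, passed for 0 of 23537 testable regions (0%), with 61 (0.259%) at an unadjusted p under 0.05. It passed for 0 of 1189 regions exclusive to Cre-positive migDC1, with 3 unadjusted, and for 0 of 123 exclusive to Cre-negative migDC1, with 2. The limma rank test above, over other regions, called 11.

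The migDC1 titles carry letters, as do 2 libraries per genotype of migDC2 and DN migDC. In those the same count ran the other way: 123 regions only with Cre and 2618 only without in migDC2, and 490 and 2389 in DN migDC, with full lists. At equal length they were 875 and 773, and 1415 and 949. On the migDC1 regions themselves, those lists made 34 and 781 such calls in migDC2 and 128 and 966 in DN migDC. Of migDC1's 1745, 5 were among the 34 with Cre (0.287% of the migDC1 regions and 14.7% of the migDC2 ones) and 23 among the 128 (1.32% and 18%). Of its 193 without Cre, 6 were among the 781 (3.11% and 0.768%) and 10 among the 966 (5.18% and 1.04%).

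A test of whether the genotype difference was another in migDC1 than in the other subsets passed for 6 of 24066 regions by signal (0.0249%), with 1125 at an unadjusted p under 0.05, and for 2 by summit height (0.00831%), with 809 unadjusted. A gene body region of Ankrd44, a regulatory subunit of a protein phosphatase (chr1:54798239-54798907), passed by both. It was weak in all migDC1 lists, at ranks 26556 and 31033 without Cre and 39674 and 39913 with it (−1.36, −2.09 to −0.63), and the other subsets were at 0.03. The calling peaks there were 669 and 740 bp wide without Cre and 273 and 370 bp with it. Per base, migDC1 differed from the other subsets by −0.01, which did not pass. The promoter of Bach1, a repressor of heme and antioxidant genes (chr16:87698642-87700801), ranked 6841 and 8911 against 2235 and 2489 in migDC1, with 0.07 in the other subsets. Its peaks were 947 and 974 bp wide without Cre and 2160 and 2241 bp with it, and it did not pass by summit height.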

How the data were processed

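The authors deposited 1 narrowPeak list per library. Per the submitters' processing notes, Bowtie2, deepTools and Genrich were used with mm10. Versions, settings, duplicate handling and any Tn5 shift: not given in the sources used here. Each peak's deposited signal and the −log10 p at its summit, both as the authors gave them, served only to rank or filter peaks within a list. Groups came from the labels.

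A call needed an overlap of 50% or more of either the region or the peak. It went to the RefSeq gene (GRCm38.p6) with a start within 1000 bp (promoter), or with either end that near where no start is tabulated (gene end), else to the gene body, else to the nearest gene within 50000 bp (distal). Normal scores of ranks were fitted with limma 3.58.1 (trend) in R 4.3.3, on the 4 migDC1 lists or, with a subset term, on all other floxed lists, and adjusted by Benjamini-Hochberg at 0.05. Other steps used Python 3.11.15, and scripts were tested on simulated data. Of 396 listed genes, 395 matched a symbol.

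Members and the 18 gene lists were chosen with earlier results of these data known. Named were 25 fixed genes and, per direction, up to 15 list genes, 8 other genes and the 5 strongest regions among those exclusive to 1 genotype at both list lengths, plus the 5 ranked regions of smallest p. A few of these are not reported here. The summit and per-base ranks, the rank test in the other subsets and the test of the difference between subsets were added after the data were seen.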

Additional observations from a re-analysis of the deposited data

Results flagged for a closer look

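In 7 regions the genotype difference of migDC1 differed from that of the other 4 floxed subsets by a test of that difference (limma, adjusted p under 0.05 over 24085 regions). By signal, the difference between differences was −1.47 at the Ankrd44 gene body, 0.71 at the Bach1 promoter, 0.86 at a distal region of Zfp335, 0.70 at the Slc25a22 promoter, 1.04 at the Mdga1 gene body and 0.70 at the Wdr53 promoter. By summit height it was −1.49 at Ankrd44 and −1.59 at an intergenic region (chr5:148647755-148648319). The 5 upward regions had wider peaks in the Cre-positive than in the Cre-negative migDC1 lists, and their differences by summit height were 0.05 to 0.32. At Ankrd44 the peaks were narrower with Cre (273 and 370 bp against 669 and 740 bp). The part of peak width in these results was not tested.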

How the results depend on the processing

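No paired analysis was possible because the titles number libraries across genotypes and no label pairs them. The count of regions called only with Cre was 941 at equal list length and 1025 at signal of at least 400, and 1745 to 10259 when 1 list was left out. The count only without Cre was 646, 64 and 193 to 736, and 128 on regions over all 32 lists. Each range begins at the reported count, because leaving out a list of the genotype that holds the region cannot change it. Regions passing the rank test numbered 1 by summit −log10 p, 0 under the other full-sample alternatives, and 0 to 355 when 1 list was left out (22 without the first Cre-negative, 355 and 214 without the first and second Cre-positive list), where the lone list is assumed to vary like the other pair. The mean difference in peaks was −2210 to 12823. In the other subsets the rank test called 11 regions where the test of calls gave 0. The difference between migDC1 and the other subsets passed in 2 regions by summit height and 0 per base, and in 5 to 219 when 1 of 28 lists was left out (219 without the second migDC1 Cre-negative list, 25 without the first, 50 and 38 without the first and second migDC1 Cre-positive, 22 and 19 without the second DN migDC Cre-negative and the first DN migDC Cre-positive, 23 without the second cDC1 Cre-negative list). Covered bases around Itgax stayed higher with Cre, by 4745.5 to 12131.5 bp when 1 list was left out. Per base, the sign turned at Sart3 (−0.37), Fcer1g (−0.47), Eif4ebp1 (−0.32), Depdc1b (0.25), the intergenic region of chromosome 13 (0.60), Dph7 (0.47), Akap13 (0.47), Kif11 (−0.01), Irf1 (0.08) and Ccdc43 (−0.02). Ccdc43 also turned by summit height (−0.11) and without the second Cre-negative or first Cre-positive list (−0.05 and −0.09, range −0.09 to 0.12 with 1 list left out). Of 178 single-region comparisons with an alternative, 142 kept direction and call and 13 changed direction. The rest kept direction and differed in the call, mostly with a lone Cre-positive list. None of these regions passed in migDC1 as reported, so keeping the call meant not passing. Unless stated, the cause was not tested. Depth is unknown, so weak and absent peaks cannot be told apart.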
